A study of Mus musculus with 8 samples.

Results

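The macrophage genes described here are 10 genes that mouse tissue macrophages are known to use: the receptors Csf1r, Cx3cr1, Cd14 and Mrc1, the adaptor Tyrobp, the complement chains C1qa, C1qb and C1qc, and the lysosomal or secreted products Cd68 and Lyz2. They were taken by gene symbol, and all 10 were present among the 23343 symbols of the deposited tables, with 1 entry each. RNA came from C57BL/6 testes at postnatal day 7 and was sequenced in 8 libraries, 2 in each of 4 groups: cKit+ spermatogonia of PRC1dKO mice (cKit dKO), cKit+ spermatogonia of PRC1ctrl mice (cKit control), Thy1+ spermatogonia of PRC1dKO mice (Thy1 dKO) and Thy1+ spermatogonia of PRC1ctrl mice (Thy1 control). PRC1 is a Polycomb complex that modifies histone H2A and holds developmental genes silent. The labels do not spell out which genes the dKO lacks, which Cre or promoter was used, what the control carries, or whether replicates came from different animals, so p-values may measure only technical spread.

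Macrophages of the testis lie between the tubules and around them, near Leydig cells and spermatogonia, and are known to support both. Their survival depends on CSF1R, the receptor tyrosine kinase for CSF1 and IL-34. TYROBP (DAP12) is a membrane adaptor with an ITAM that passes signals of partner receptors to the kinase SYK, and C1q, built of A, B and C chains, is the recognition molecule that starts the classical complement cascade. The 10 genes were chosen as macrophage genes, and their RNA is used here as a measure of macrophage RNA in libraries labelled as spermatogonia. Whether germ cells contributed to this RNA was not tested.

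Library totals ran from 6763908 to 10976869 counts, and the 10 genes together took 0.0784% of all counts. RNA of the PRC1 ligase genes Ring1 and Rnf2 did not separate dKO from control in either population (edgeR adjusted p 0.30 and 0.91 in cKit, 0.81 and 0.56 in Thy1), so these counts do not check the dKO label. The labelled cell type was checked against its markers. Dazl, a germ cell RNA-binding protein, stood at 146 and 173 CPM (counts scaled to library size) in cKit dKO, 489 and 378 in cKit control, 648 and 545 in Thy1 dKO and 581 and 708 in Thy1 control. Markers of other cells were present in every library, among them Cyp11a1 of Leydig cells (121 to 681 CPM) and Dcn of stromal cells (238 to 1561 CPM). Thy1 itself was at 0 to 1.28 CPM in the cKit libraries and at 12.8 to 26.0 CPM in the Thy1 libraries, while Kit was at 938 to 1059 CPM in cKit and at 281 to 317 CPM in Thy1.

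Because most of these genes were lower together in one population, some of their promoters are shown. Capitals mark the GAGGAA core that the myeloid factor PU.1 is known to bind (either strand, so GAGGAA or TTCCTC). Promoters of 6 of the 10 genes were scanned in RefSeq (GRCm38.p6), each running from 250 bases before the start to 50 bases after it. No entry was matched for C1qa and Tyrobp, and Csf1r and Cd14 were left out of the scan. The 4 that held the motif are printed 5′ to 3′ along the gene:
C1qb (chr4:136886151-136886450, minus strand): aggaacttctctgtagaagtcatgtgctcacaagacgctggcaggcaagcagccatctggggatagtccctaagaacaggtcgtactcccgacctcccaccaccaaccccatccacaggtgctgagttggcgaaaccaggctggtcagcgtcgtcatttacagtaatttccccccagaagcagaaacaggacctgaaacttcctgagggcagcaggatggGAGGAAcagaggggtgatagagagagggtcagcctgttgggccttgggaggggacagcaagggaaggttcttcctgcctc
C1qc (chr4:136892865-136893164, minus strand): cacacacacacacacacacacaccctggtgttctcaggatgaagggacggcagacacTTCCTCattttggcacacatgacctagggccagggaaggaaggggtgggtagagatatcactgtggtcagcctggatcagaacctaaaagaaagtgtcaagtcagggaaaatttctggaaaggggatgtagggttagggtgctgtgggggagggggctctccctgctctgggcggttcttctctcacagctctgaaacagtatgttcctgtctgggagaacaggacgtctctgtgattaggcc
Cd68 (chr11:69666121-69666420, minus strand): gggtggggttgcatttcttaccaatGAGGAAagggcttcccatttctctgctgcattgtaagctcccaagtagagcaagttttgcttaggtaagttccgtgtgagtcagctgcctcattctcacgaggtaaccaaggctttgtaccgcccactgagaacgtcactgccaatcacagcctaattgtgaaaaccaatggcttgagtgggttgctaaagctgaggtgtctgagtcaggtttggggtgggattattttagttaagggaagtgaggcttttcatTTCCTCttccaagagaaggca
Mrc1 (chr2:14229164-14229463, plus strand): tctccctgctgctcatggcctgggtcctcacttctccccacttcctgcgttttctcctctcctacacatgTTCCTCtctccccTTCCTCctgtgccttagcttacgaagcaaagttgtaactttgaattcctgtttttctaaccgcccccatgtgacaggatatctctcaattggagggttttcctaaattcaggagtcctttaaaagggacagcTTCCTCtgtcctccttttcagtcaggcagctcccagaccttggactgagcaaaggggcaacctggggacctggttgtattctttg
C1qb held the motif once, at position -30 from the start, and C1qc once, at position -193. In Cd68 it occurred at -225 and at 30, and in Mrc1 at -180, -167 and -35. Positions count from RefSeq's start, which lies 108 bases upstream of the deposited start for Cd68, 23 bases upstream for C1qb and at the deposited start for C1qc and Mrc1. Cx3cr1 and Lyz2 had no match in their windows. The motif is common: 28.28% of 32851 RefSeq promoters of the same length (9289) held it, so a match describes the letters and shows no binding.

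The 3 C1q genes lie side by side on the minus strand of mm10 chromosome 4, in the order C1qb (136880145 to 136886177), C1qc (136889802 to 136892914) and C1qa (136895916 to 136898844), with gaps of 3624 and 3001 bp. The others are scattered: Mrc1 on chromosome 2 (14229414 to 14332023, plus strand), Tyrobp on chromosome 7 (30413788 to 30417579, plus), Cx3cr1 on chromosome 9 (120048683 to 120068296, minus), Lyz2 on chromosome 10 (117277541 to 117282272, minus), Cd68 on chromosome 11 (69664371 to 69666062, minus), and Cd14 (36725067 to 36726654, minus) and Csf1r (61105572 to 61131139, plus) on chromosome 18. Only Mrc1 overlapped another gene of the tables, the microRNA gene Mir511 on the same strand, which had 0 counts. Lyz2 has a close paralog, Lyz1, whose reads the counting could have split or shared; Lyz1 had 0 to 13 counts in a library.

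Levels of different genes were compared only per length, from the deposited RPKM (reads per kilobase of transcript, scaled to library depth). Lyz2, the lysozyme of mouse myeloid cells, was the highest of the 10 in all 4 groups, at 34.5 ± 38.6 RPKM in cKit dKO, 32.3 ± 21.6 in cKit control, 103 ± 20.5 in Thy1 dKO and 78.8 ± 4.30 in Thy1 control (mean ± SD, n = 2). In both Thy1 groups its replicates lay above those of every other member, whereas in cKit dKO they overlapped those of Cd68. Below it, 6 genes (Cd68, Tyrobp, Mrc1, C1qb, C1qc and Csf1r) stood between 11.4 and 18.8 RPKM in Thy1 control and between 15.7 and 24.7 RPKM in Thy1 dKO. Neighbours from Cd68 down to C1qb in Thy1 control overlapped between replicates, so their order there is not resolved. In the cKit groups the same 6 genes stood between 3.30 and 11.2 RPKM (dKO) and between 3.79 and 8.10 RPKM (control), and neighbours overlapped throughout the dKO. Cx3cr1 was eighth in every group, at 1.60 ± 0.857, 1.65 ± 0.392, 6.11 ± 0.912 and 3.43 ± 0.0496 RPKM in cKit dKO, cKit control, Thy1 dKO and Thy1 control. C1qa and Cd14 came last, C1qa at 0.546 to 2.59 RPKM and Cd14 at 0.141 to 0.587 RPKM as group means.

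**Figure D1:**
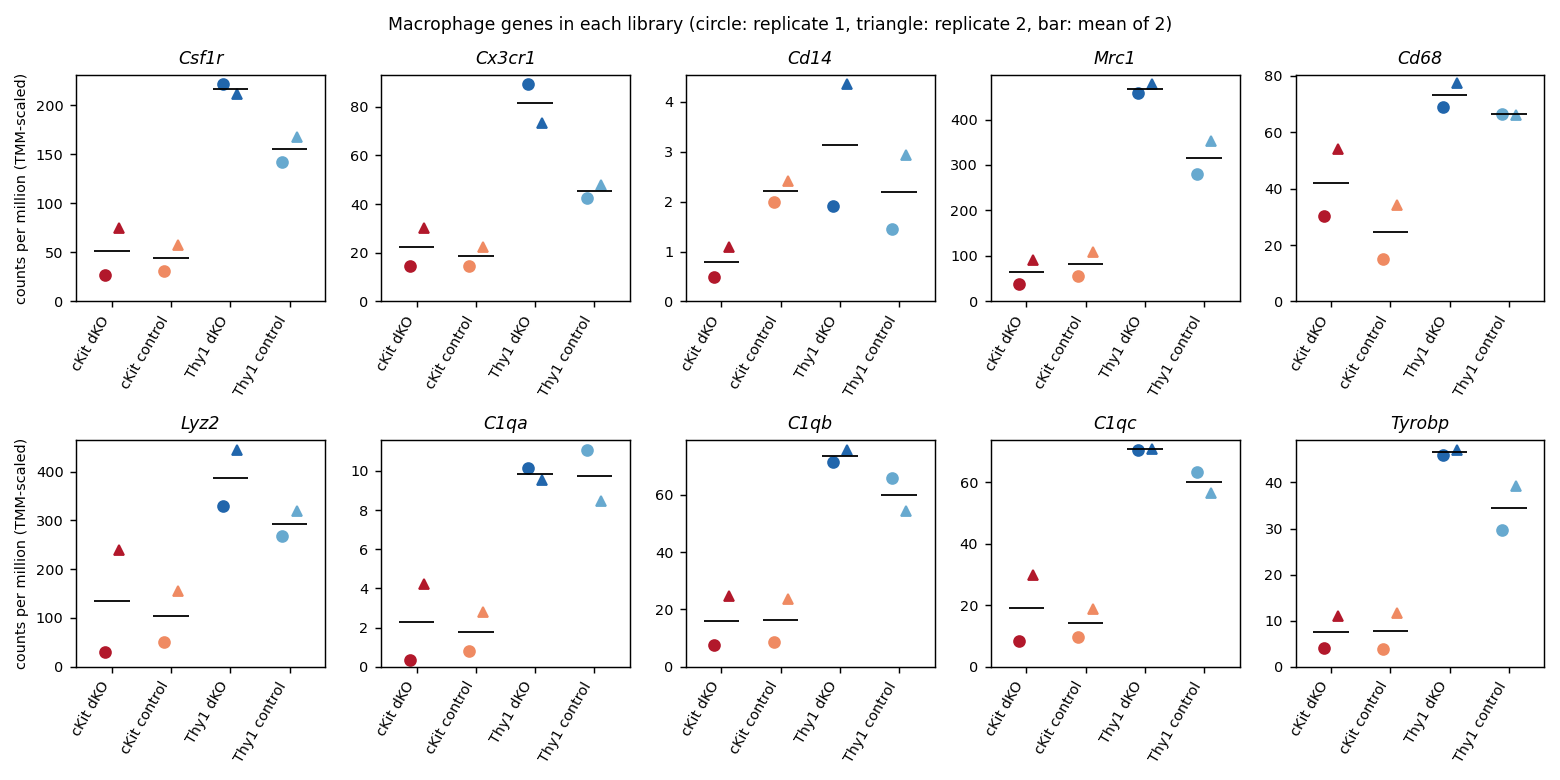
Level of each of the 10 macrophage genes in each library, in CPM on a linear axis. Groups are cKit dKO, cKit control, Thy1 dKO and Thy1 control from left to right. Replicate 1 is a circle, replicate 2 a triangle, and a bar marks the group mean. In both cKit groups the triangle is above the circle for all 10 genes, and apart from Cd14 the Thy1 points lie above all cKit points.

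Within genotype, most of the 10 genes were lower in cKit than in Thy1 libraries: 8 in dKO, where 20.0% of all genes tested were lower, and 8 in control, where 10.3% were (edgeR, adjusted p under 0.05). Csf1r, the CSF1 receptor, stood at 27.1 and 75.4 CPM in the cKit dKO libraries, 30.9 and 57.3 CPM in cKit control, 222 and 212 CPM in Thy1 dKO and 142 and 168 CPM in Thy1 control. Mrc1, the mannose receptor CD206, stood at 39.4 and 91.4 CPM in cKit dKO, 56.9 and 108 CPM in cKit control, 459 and 477 CPM in Thy1 dKO and 280 and 352 CPM in Thy1 control. For both genes every cKit library was below every Thy1 library. Csf1r was 4.23-fold lower in cKit dKO than in Thy1 dKO (log2 fold change -2.08 ± 0.33 SE, edgeR adjusted p = 1.8e-04) and 3.56-fold lower in cKit control than in Thy1 control (-1.83 ± 0.32, adjusted p = 7.1e-04). Mrc1 was 7.15-fold lower in cKit dKO (-2.84 ± 0.31, edgeR adjusted p = 7.2e-06) and 3.87-fold lower in cKit control (-1.95 ± 0.29, adjusted p = 1.9e-04). In bulk RNA, fewer macrophages, less of these RNAs per macrophage and a change in other cells that make them cannot be told apart.

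The other surface receptors differed from each other. Cx3cr1, the fractalkine receptor, had 14.6 and 30.3 CPM in cKit dKO, 14.7 and 22.3 CPM in cKit control, 89.5 and 73.4 CPM in Thy1 dKO and 42.6 and 47.9 CPM in Thy1 control. Its populations did not overlap in either genotype, and it fell 3.63-fold in cKit dKO (-1.86 ± 0.27, edgeR adjusted p = 8.4e-05) and 2.47-fold in cKit control (-1.30 ± 0.27, adjusted p = 0.0023) relative to Thy1. Cd14, the lipopolysaccharide co-receptor, was near the floor, with 3 and 7 counts in cKit dKO, 23 and 19 in cKit control, 17 and 32 in Thy1 dKO and 11 and 25 in Thy1 control. At that depth its CPM was 0.480 and 1.10 in cKit dKO, 1.99 and 2.42 in cKit control, 1.91 and 4.36 in Thy1 dKO and 1.45 and 2.93 in Thy1 control. The control populations overlapped (log2 fold change 0.00 ± 0.64, edgeR adjusted p = 0.998), and the dKO populations did not, but the difference missed the threshold (-1.95 ± 0.74, adjusted p = 0.054).

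Tyrobp, the DAP12 adaptor, had 4.0 and 10.98 CPM in cKit dKO, 3.90 and 11.7 CPM in cKit control, 45.9 and 47.1 CPM in Thy1 dKO and 29.7 and 39.2 CPM in Thy1 control. No cKit library reached a Thy1 library. It was 6.19-fold lower in cKit dKO (-2.63 ± 0.42, edgeR adjusted p = 2.0e-04) and 4.58-fold lower in cKit control (-2.20 ± 0.40, adjusted p = 0.0010).

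Of the complement chains, C1qb had 7.52 and 24.6 CPM in cKit dKO, 8.57 and 23.7 CPM in cKit control, 71.4 and 75.8 CPM in Thy1 dKO and 65.9 and 54.4 CPM in Thy1 control. C1qc had 8.32 and 29.8 CPM in cKit dKO, 9.79 and 18.8 CPM in cKit control, 70.6 and 70.6 CPM in Thy1 dKO and 63.2 and 56.6 CPM in Thy1 control. Both genes were thus separated by population in both genotypes, and within each group the 2 chains tracked each other. C1qb had log2 fold changes of -2.19 ± 0.41 in cKit dKO (edgeR adjusted p = 7.7e-04) and -1.94 ± 0.40 in cKit control (adjusted p = 0.0026). For C1qc the log2 fold changes were -1.89 ± 0.37 in cKit dKO (edgeR adjusted p = 0.0011) and -2.10 ± 0.37 in cKit control (adjusted p = 7.6e-04). C1qa rested on few reads, with 2 and 27 counts in cKit dKO, 9 and 22 in cKit control, 90 and 70 in Thy1 dKO and 84 and 72 in Thy1 control. Its log2 fold changes were -2.10 ± 0.67 in cKit dKO (edgeR adjusted p = 0.024) and -2.51 ± 0.67 in cKit control (adjusted p = 0.015).

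Cd68 and Lyz2 encode products of the lysosome or of secretion. Cd68, the lysosomal membrane glycoprotein macrosialin, had 30.3 and 54.0 CPM in cKit dKO, 15.1 and 34.2 CPM in cKit control, 68.8 and 77.3 CPM in Thy1 dKO and 66.5 and 66.1 CPM in Thy1 control. It was 1.73-fold lower in cKit dKO (-0.79 ± 0.29, edgeR adjusted p = 0.044) and 2.74-fold lower in cKit control (-1.46 ± 0.29, adjusted p = 0.0022). Lyz2 had 29.5 and 239 CPM in cKit dKO, 51.5 and 155 CPM in cKit control, 330 and 444 CPM in Thy1 dKO and 268 and 318 CPM in Thy1 control. Although no cKit library of Lyz2 reached a Thy1 library of its genotype, neither difference passed (-1.53 ± 0.58, edgeR adjusted p = 0.055 in dKO, and -1.52 ± 0.58, adjusted p = 0.085 in control). Its log2 fold change in dKO was -0.61 (edgeR adjusted p = 0.22) without the first cKit dKO library and -3.65 (adjusted p = 1.6e-05) without the second. In control it was -0.91 (edgeR adjusted p = 0.43) without the first cKit control library and -2.52 (adjusted p = 0.037) without the second.

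**Figure D2:**
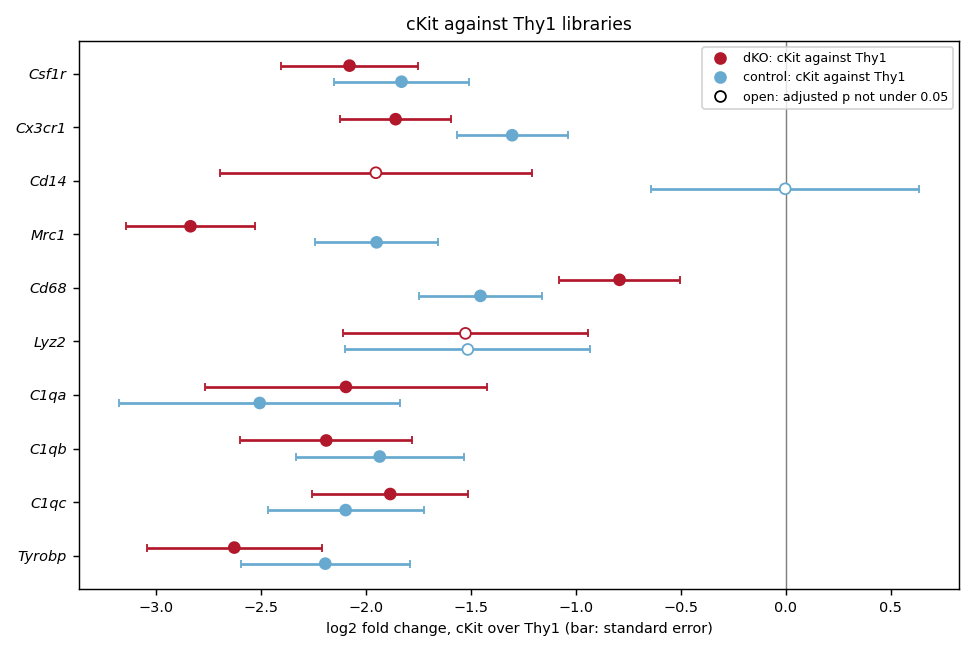
Log2 fold change of cKit over Thy1 for each macrophage gene in the dKO (red) and in the control (blue), with bars of 1 standard error and open symbols where the adjusted p was not under 0.05. All points but that of Cd14 in the control lie below 0, between -0.79 and -2.84, and Cd14 and Lyz2 are open in both genotypes.

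Counted together, 8 of 10 genes were lower and 0 higher in cKit dKO than in Thy1 dKO, where 20.0% of the 14907 genes tested were lower and 14.8% higher, and their median log2 fold change was -2.02 beside -0.08 over all genes. In the control 8 of 10 were lower and 0 higher, where 10.3% of all genes tested were lower and 9.46% higher, with a median of -1.88 beside 0.01 over all genes. The populations did not overlap, with cKit lower, for 10 of 10 genes in dKO (38.2% of all genes tested) and for 9 of 10 in control (29.8%). Without the first cKit dKO library 6 genes were lower (14.4% of all genes tested) and the median was -1.37, and without the second 9 were lower (15.2%) and the median was -3.12. A scaling that holds the summed counts of 30 core germ cell genes constant moved the median of all genes to 1.64 in cKit dKO against Thy1 dKO. There the median of the 10 genes was -0.42, 2 genes were lower (Mrc1 and Tyrobp), beside 1.15% of all genes tested, and Cd68 was higher (0.85, edgeR adjusted p = 0.0094), beside 78.6%.

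Single cKit libraries also set the size of several folds. Relative to Thy1 dKO, the log2 fold change of Csf1r was -1.44 without the first cKit dKO library and -2.94 without the second, that of C1qc was -1.16 and -3.02, that of C1qb -1.49 and -3.22, that of Tyrobp -2.0 and -3.47, and that of Mrc1 -3.50 without the second. C1qa missed the threshold without the first cKit dKO library (-1.13, edgeR adjusted p = 0.12), and was at -4.81 without the second. The log2 fold change of Cd68 in dKO was -0.35 without the first cKit dKO library (edgeR adjusted p = 0.38). It stayed at -0.87 and -0.71 without the first or the second Thy1 dKO library and at -0.79 without either Thy1 control library, but missed the threshold each time (edgeR adjusted p 0.093, 0.17, 0.061 and 0.062). C1qa in dKO likewise missed it without the first (-2.05, edgeR adjusted p = 0.090) or the second Thy1 dKO library (-2.14, adjusted p = 0.070). In the control, leaving out the first or the second cKit library gave -1.34 and -2.81 for C1qb, -1.55 and -3.15 for Tyrobp, and -1.79 (edgeR adjusted p = 0.14) and -3.63 for C1qa, and Cd68 was at -2.14 without the second. C1qa in control also missed the threshold without the first Thy1 control library (edgeR adjusted p = 0.091) and with DESeq2 (0.13) or with the RefSeq entry of most counts per symbol (edgeR, 0.068), and C1qb missed it with DESeq2 (0.054). In dKO, DESeq2 called neither Cd68 (adjusted p = 0.25) nor C1qa (0.17), and neither passed with the entry of most counts (edgeR adjusted p 0.12 and 0.076). Cd68 in dKO also missed it with RLE size factors (edgeR adjusted p = 0.058), and C1qa with only the 4 dKO libraries in the fit (0.051). With germ cell scaling Csf1r, Cx3cr1, C1qa, C1qb and C1qc missed it in dKO, at -0.22 to -0.60. Lyz2 passed as lower in cKit under 7 of the 18 other settings in each genotype, and Cd14 in dKO under 5.

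The cKit replicates differed from each other in the same direction for all 10 genes. Replicate 2 was above replicate 1 for 10 of 10 genes in cKit dKO, by 1.78-fold (Cd68) to 13.2-fold (C1qa), and for 10 of 10 in cKit control, by 1.22-fold (Cd14) to 3.602-fold (C1qa). The difference was over 1.5-fold for 10 genes in cKit dKO and for 9 in cKit control, where 2029 and 1642 of all 14907 genes tested exceeded it. Lyz2 in cKit dKO was 8.10-fold higher in replicate 2. Thy1 replicates were closer, and only Cd14 exceeded 1.5-fold in them, with replicate 2 the higher. Of all genes tested, 7.84% in Thy1 dKO and 7.61% in Thy1 control exceeded it in that direction. The sum of the 10 genes was 161 and 561 CPM in cKit dKO, 194 and 437 CPM in cKit control, 1369 and 1491 CPM in Thy1 dKO and 970.4 and 1114 CPM in Thy1 control.

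Within each population, dKO and control were not told apart for any of the 10 genes. In cKit, 0 genes passed the test (edgeR), where 28.6% of the 14907 genes did. At an unadjusted p under 0.05 there was 1, Cd68, beside 39.9% of all genes, and DESeq2 also called 0. The median log2 fold change of the 10 genes was 0.26, beside 0.03 over all genes. Cd68 was 1.74-fold higher in cKit dKO (0.80 ± 0.30, edgeR adjusted p = 0.058), and its replicates overlapped. Cd14 was the only gene whose cKit groups did not overlap, lower in dKO (-1.46 ± 0.75, edgeR adjusted p = 0.16), on 3 to 23 counts, where 30% of all genes tested were lower without overlap. The other 8 ranged from -0.32 ± 0.30 for Mrc1 to 0.45 ± 0.40 for C1qc, with Tyrobp at 0.00 ± 0.47 and Csf1r at 0.24 ± 0.33.

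The cKit genotype comparison turned with the choice of library. Without the first cKit dKO library 5 of 10 genes were higher in dKO (Csf1r, Cd68, Lyz2, C1qc and Cx3cr1, median over the 10 genes 0.81), where 12.7% of all genes tested were. Without the second, 2 were lower (Lyz2 at -1.77 and Mrc1 at -1.02, median -0.94), where 13.1% of all genes were. Leaving out the first cKit control library gave 0 calls and a median of -0.25, and leaving out the second gave 1 higher gene (Cd68 at 1.53, beside 12.6% of all genes) and a median of 0.97. Of 30 core germ cell genes, 26 were lower in cKit dKO, where 15.4% of all genes tested were. With scaling by these germ cell genes, 9 of 10 macrophage genes were higher, beside 80.7% of all genes tested. The median of the 10 macrophage genes was then 1.66, beside 1.61 over all genes. On the deposited RPKM (limma on log2(RPKM + 0.1)) the median of the 10 genes was -0.35, beside -0.29 over all genes, and 1 gene, Cd14, was called lower, beside 27.1% of all genes.

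In Thy1, 0 of 10 genes passed (edgeR), where 0.624% of all genes tested did. At an unadjusted p under 0.05 there was 1, Cx3cr1, beside 13.8% of all genes. DESeq2 called 0, but gave 2 of the 10 genes no adjusted p. The median log2 fold change was 0.42, beside 0.03 over all genes. Thy1 dKO lay above Thy1 control without overlap for 8 of 10 genes, where 28.5% of all genes tested did so. Cx3cr1 was 1.80-fold higher in Thy1 dKO (0.85 ± 0.25, edgeR adjusted p = 0.12), Mrc1 1.48-fold (0.57 ± 0.28, adjusted p = 0.38), Csf1r 1.40-fold (0.48 ± 0.30, adjusted p = 0.51) and Tyrobp 1.35-fold (0.43 ± 0.36, adjusted p = 0.65). C1qa (0.01 ± 0.58) and Cd14 (0.49 ± 0.65) were the 2 whose groups overlapped. Some other fits called more genes as higher in dKO: 3 genes (Cx3cr1, Mrc1 and Csf1r) with only the 4 Thy1 libraries in the fit, where 3.01% of all genes tested were higher, and 4 (with Lyz2) without the filter on low counts, where 1.65% were. Cx3cr1 also passed when the first or the second cKit dKO library was left out of the fit (0.81, edgeR adjusted p = 0.024 each), beside 1.09% and 1.13% of all genes.

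**Figure D3:**
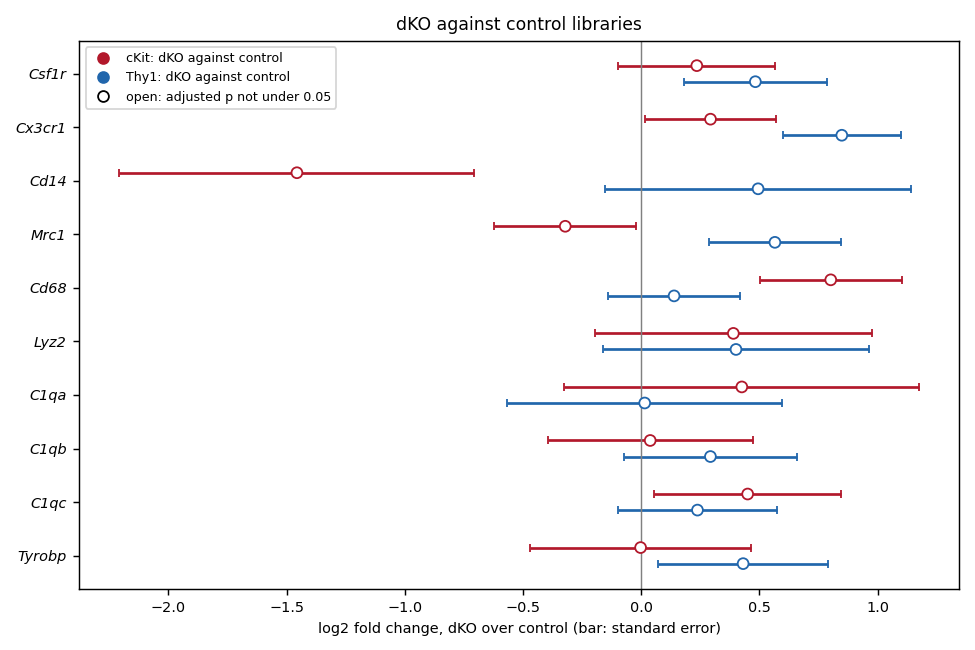
Log2 fold change of dKO over control for each macrophage gene in cKit (red) and in Thy1 (blue), with bars of 1 standard error and open symbols where the adjusted p was not under 0.05. Every symbol is open: the Thy1 points lie between 0.01 and 0.85 and the cKit points between -1.46 and 0.80.

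The difference between the 2 dKO effects (cKit minus Thy1) was tested directly. No gene of the 10 passed (edgeR), beside 5.92% of all genes tested. At an unadjusted p under 0.05 there was 1 (Mrc1, -0.89 ± 0.41, edgeR adjusted p = 0.23), beside 20.7% of all genes. DESeq2 called 0, but gave 1 of the 10 genes no adjusted p. Cd14 had the lowest estimate (-1.95 ± 0.99, edgeR adjusted p = 0.29) and Cd68 the highest (0.66 ± 0.41, adjusted p = 0.39). Without the second cKit dKO library 4 genes were lower (Csf1r, Lyz2, Mrc1 and Cx3cr1), beside 4.60% of all genes tested, and without the second cKit control library Cd68 was higher (1.43, edgeR adjusted p = 0.029), beside 2.97%.

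Ratios between the genes within a library do not depend on its scaling. The RPKM of C1qb over that of C1qc was 0.897 and 0.820 in cKit dKO, 0.870 and 1.26 in cKit control, 1.004 and 1.07 in Thy1 dKO and 1.03 and 0.953 in Thy1 control. C1qb over C1qa was 23.9 and 5.92 in cKit dKO, 11.2 and 8.61 in cKit control, 7.18 and 8.11 in Thy1 dKO and 6.08 and 6.55 in Thy1 control. The 23.9 rests on 2 counts of C1qa. Cd68 over Csf1r was 4.30 and 2.75 in cKit dKO, 1.87 and 2.29 in cKit control, 1.19 and 1.40 in Thy1 dKO and 1.80 and 1.51 in Thy1 control. Thus cKit dKO held the 2 highest values of this ratio and Thy1 dKO the 2 lowest. Lyz2 over Mrc1 was 3.76 and 13.1 in cKit dKO, 4.56 and 7.24 in cKit control, 3.62 and 4.69 in Thy1 dKO and 4.80 and 4.55 in Thy1 control, so the second cKit dKO library stood apart.

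**Figure D4:**
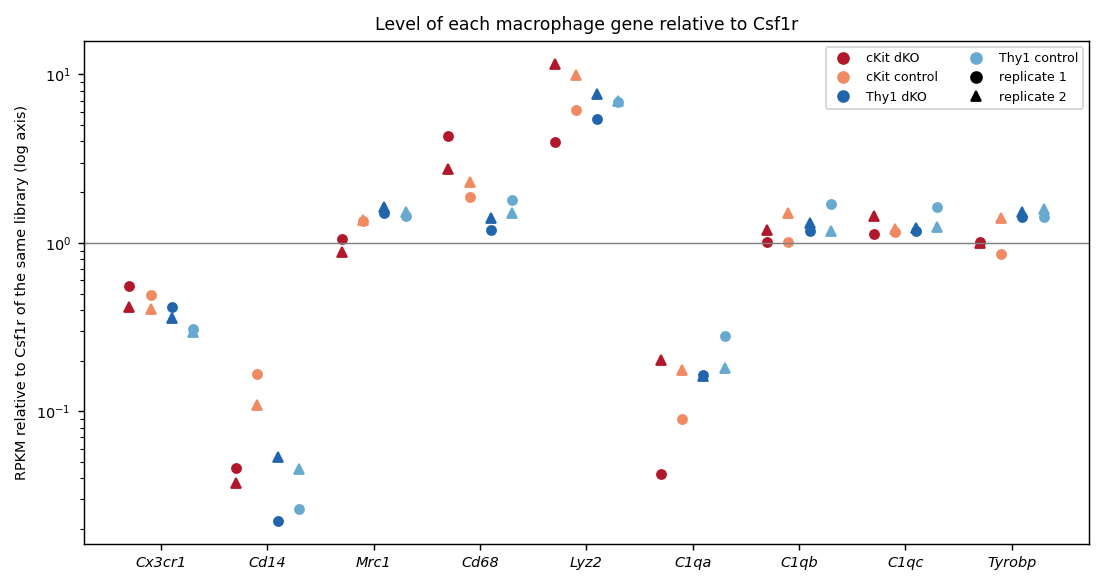
RPKM of each macrophage gene divided by that of Csf1r in the same library, on a log axis, with the 4 groups from left to right and replicates 1 and 2 as circle and triangle. C1qb and C1qc stay within 1.01 to 1.69 and 1.13 to 1.64 in all libraries, while Lyz2 runs from 3.99 to 11.6 and Cd68 from 1.19 to 4.30.

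Over the 8 libraries, 9 members followed the mean profile of the other 9 closely, with Pearson r from 0.869 (Cd68) to 0.992 (Csf1r), and Cd14 followed it less, at 0.600. Among 13179 other genes, the 10 most like the members' mean profile were Arl4c (0.998), Plek (0.994), Ctss (0.993), Emr1 (0.993), Gltp (0.993), Tlr7 (0.991), Ms4a6d (0.991), Stab1 (0.990), Fcrls (0.990) and Cd300a (0.990). The libraries fall into the 2 populations, so these values mostly describe the population difference and the split of the cKit replicates. Emr1, which encodes the macrophage antigen F4/80, stood at 2.24 and 12.4 CPM in cKit dKO, 3.64 and 8.04 CPM in cKit control, 49.1 and 48.5 CPM in Thy1 dKO and 34.8 and 31.0 CPM in Thy1 control.

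Further macrophage markers were read beside the 10 genes. In cKit dKO against Thy1 dKO, 20.0% of all genes tested were lower and 14.8% higher. In cKit control against Thy1 control, 10.3% were lower and 9.46% higher. Of 7 defining markers (Emr1, Fcgr1, Mertk, Itgam, Aif1, Cd163 and Ptprc) 4 were lower in cKit dKO than in Thy1 dKO (Ptprc -2.32 ± 0.36, edgeR adjusted p = 1.8e-04; Emr1 -2.73 ± 0.45; Aif1 -2.63 ± 0.52; Fcgr1 -2.37 ± 0.66). In the control 4 were lower too (Emr1 -2.54 ± 0.45, edgeR adjusted p = 7.2e-04; Aif1 -2.28 ± 0.49; Ptprc -1.51 ± 0.35; Cd163), and Cd163, a scavenger receptor, had 0 counts in both cKit control libraries and in the second cKit dKO library. Ptprc in control was at -0.31 (edgeR adjusted p = 0.69) with the RefSeq entry of most counts per symbol. It also missed the threshold in control with limma on log2(RPKM + 0.1) and log2(RPKM + 1) (limma adjusted p 0.066 and 0.053). Aif1, Ptprc and Fcgr1 missed it in dKO with germ cell scaling (-0.97, -0.71 and -0.80, edgeR adjusted p 0.14, 0.095 and 0.26). The call of Cd163 held in 2 of the 8 fits without 1 library. Mertk, an efferocytosis receptor, did not follow: it had 45.1 and 53.5 CPM in cKit dKO, 26.6 and 31.6 CPM in cKit control, 36.9 and 53.4 CPM in Thy1 dKO and 28.7 and 38.0 CPM in Thy1 control. It rose in cKit dKO against cKit control (0.76 ± 0.21, edgeR adjusted p = 0.012), but missed the threshold without the first cKit control library (0.64, adjusted p = 0.12). Fcgr1 in dKO missed it without the first cKit dKO library (-1.46, edgeR adjusted p = 0.069) or the second Thy1 dKO library (-2.30, adjusted p = 0.058), and Ptprc in control without the first cKit control library (-1.20, adjusted p = 0.079).

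Genes tied to residence in tissue moved with the 10 genes between populations. Of 16 tested, 13 were lower and 1 higher in cKit dKO than in Thy1 dKO, where 20.0% and 14.8% of all genes tested were. Their median was -2.66, beside -0.08 over all genes. In the control 10 were lower and 1 higher, where 10.3% and 9.46% of all genes tested were. The median there was -2.07, beside 0.01 over all genes. F13a1, the coagulation factor XIII A chain, fell by 3.16 ± 0.24 on the log2 scale in cKit dKO (edgeR adjusted p = 2.9e-07) and by 2.32 ± 0.22 in cKit control (adjusted p = 2.2e-06). Cbr2, a carbonyl reductase, had 2.24 and 2.51 CPM in cKit dKO, 5.54 and 7.02 CPM in cKit control, 39.9 and 33.4 CPM in Thy1 dKO and 36.3 and 33.8 CPM in Thy1 control. In cKit dKO against cKit control 2 of the 16 genes were lower and 1 higher, where 15.4% and 13.2% of all genes tested were. Their median there was -0.10, beside 0.03 over all genes. For the difference of the dKO effects 1 was lower and 0 higher, beside 4.06% and 1.86%. Cbr2 was lower in cKit dKO than in cKit control (-1.38 ± 0.30, edgeR adjusted p = 0.0032). Its dKO effect differed between the populations (-1.45 ± 0.36, edgeR adjusted p = 0.029). The first of these held in all 8 fits without 1 library, and with germ cell scaling its sign turned (0.15, edgeR adjusted p = 0.75). The second held in 2 of the 8, with log2 differences of -1.62 to -1.20. Timd4, a phosphatidylserine receptor, was also lower in cKit dKO (-3.23 ± 1.04, edgeR adjusted p = 0.030), on at most 2.25 CPM in any cKit library. It missed the threshold without the first cKit control library (-2.38, edgeR adjusted p = 0.23) or the second cKit dKO library (-2.27, adjusted p = 0.14). Gas6, a ligand of the TAM receptors that many cell types make, was higher in cKit in both genotypes (1.36 ± 0.13 in dKO and 1.26 ± 0.13 in control).

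Transcription factors known from macrophages did not form one group with the 10 genes. Sfpi1, the gene of PU.1, stood at 0.80 and 5.49 CPM in cKit dKO, 0.953 and 3.83 CPM in cKit control, 6.98 and 6.40 CPM in Thy1 dKO and 5.52 and 7.51 CPM in Thy1 control. Irf8, an interferon regulatory factor of the myeloid lineage, was instead higher in cKit, at 158 and 225 CPM in cKit dKO, 99.1 and 99.3 CPM in cKit control, 49.7 and 61.0 CPM in Thy1 dKO and 31.3 and 26.3 CPM in Thy1 control. It rose in dKO against control in both populations, by 0.95 ± 0.16 in cKit (edgeR adjusted p = 5.7e-04) and by 0.94 ± 0.18 in Thy1 (adjusted p = 0.029). The Thy1 difference of Irf8 was 0.79 to 1.08 and missed the threshold when any 1 of the 4 Thy1 libraries was left out (edgeR adjusted p 0.12 to 0.38). Maf and Id3 rose in cKit dKO against cKit control as well (1.34 ± 0.14 and 1.22 ± 0.17), and both had a larger dKO effect in cKit than in Thy1 (differences 0.96 ± 0.20 and 1.07 ± 0.23, edgeR adjusted p 0.010 and 0.014). Of the 8 fits without 1 library, 4 kept the call of this difference for Maf (0.78 to 1.19) and 5 for Id3 (0.94 to 1.31). Of the 10 factors tested, 5 were higher and 1 lower in cKit dKO than in Thy1 dKO, where 14.8% and 20.0% of all genes tested were. In the control 3 were higher and 2 lower, where 9.46% and 10.3% of all genes tested were. Between genotypes 4 were higher in cKit dKO, beside 13.2% of all genes tested, and 1 in Thy1 dKO, beside 0.362%.

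The ligand Csf1 was at 61.5 and 46.9 CPM in cKit dKO, 36.9 and 34.2 CPM in cKit control, 49.4 and 53.4 CPM in Thy1 dKO and 65.6 and 47.2 CPM in Thy1 control. It was lower in cKit control than in Thy1 control (-0.66 ± 0.18, edgeR adjusted p = 0.017) and higher in cKit dKO than in cKit control (0.61 ± 0.18, adjusted p = 0.022). Each of these calls held in 5 of the 8 fits without 1 library, with log2 fold changes of -0.88 to -0.41 and 0.45 to 0.82. Il34, the second ligand, stayed at or under 2.31 CPM and passed no test. Cx3cl1, the ligand of Cx3cr1, was higher in cKit than in Thy1 in both genotypes (1.13 ± 0.23 in dKO, edgeR adjusted p = 0.0014, and 1.18 ± 0.23 in control, adjusted p = 0.0018), opposite to its receptor.

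Of 12 tested genes of DAP12 and ITAM signalling, 7 were lower and 0 higher in cKit dKO than in Thy1 dKO, with Fcer1g, the Fc receptor gamma chain, at -2.18 ± 0.33 and Syk at -1.66 ± 0.34. With germ cell scaling neither passed in dKO (-0.56 and 0.0012). In the control 5 were lower and 0 higher, with Fcer1g at -2.20 ± 0.33 and Syk at -1.58 ± 0.34. Of 13 tested genes of the lipopolysaccharide receptor pathway, 5 were lower and 3 higher in dKO, and 4 were lower and 1 higher in control. Among them Tlr4, the receptor that Cd14 serves, fell by 3.10 ± 0.41 on the log2 scale in cKit dKO (edgeR adjusted p = 4.6e-05) and by 2.73 ± 0.40 in cKit control (adjusted p = 1.5e-04). Of 14 tested complement genes outside C1q, 5 were lower and 4 higher in dKO and 4 were lower and 1 higher in control. C3ar1, the C3a receptor, was at -2.17 ± 0.35 in dKO and -2.24 ± 0.34 in control. It missed the threshold in dKO with germ cell scaling (-0.59, edgeR adjusted p = 0.074). Of 19 tested genes of lysosome and phagocytosis 8 were lower in dKO and 9 in control, with 0 higher in either. Of 6 tested MHC class II genes 3 were lower in dKO and 0 in control, with medians of -1.66 and -1.38. Beside all counts in this paragraph, 20.0% of all genes tested were lower and 14.8% higher in dKO. In control 10.3% of all genes tested were lower and 9.46% higher.

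Markers of other cells moved between the same groups, and their part in the results above was not tested. Beside the counts that follow, 20.0% of all genes tested were lower and 14.8% higher in cKit dKO than in Thy1 dKO. In the control 10.3% of all genes tested were lower and 9.46% higher. T and NK cell markers summed to 12.8 and 19.0 CPM in cKit dKO, 9.0 and 16.1 CPM in cKit control, 60.8 and 58.1 CPM in Thy1 dKO and 47.3 and 36.3 CPM in Thy1 control, and Nkg7, a granule protein of NK and cytotoxic T cells, had 0 counts in all 4 cKit libraries. Of 19 peritubular and stromal genes 14 were lower and 1 higher in cKit dKO than in Thy1 dKO and 18 were lower in the control, with summed levels of 6413 to 8106 CPM in cKit dKO, 3886 to 4031 in cKit control, 14407 to 14950.4 in Thy1 dKO and 12676 to 16386 in Thy1 control. Leydig and mast cell markers ran opposite to the macrophage genes. Of 13 Leydig genes 12 were higher in cKit in dKO and 11 in control, with summed levels of 16623 to 19273 CPM in cKit dKO, 11920 to 14317 in cKit control, 4128 to 4604 in Thy1 dKO and 2843 to 3518 in Thy1 control. Markers of mast cells, which carry KIT themselves, summed to 264 to 320 CPM in cKit dKO, 137 to 224 in cKit control, 67.7 to 68.7 in Thy1 dKO and 62.7 to 63.2 in Thy1 control, and 8 of the 10 tested were higher in cKit in both genotypes. Neutrophil genes summed to at most 3.9 CPM in any library, with 5 to 8 of the 10 found at 0 counts.

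Between genotypes in cKit, endothelial genes summed to 479 and 502 CPM in dKO and 264 and 268 CPM in control, Sertoli genes to 2071 and 2148 CPM in dKO and 1453 and 1533 CPM in control, and core germ cell genes to 791 and 1151 CPM in dKO and 3168 and 2534 CPM in control. The sums of these lists separated dKO from control in cKit without overlap, whereas the sum of the 10 macrophage genes did not. Gene by gene, 6 of 14 endothelial genes tested were higher and 1 lower in cKit dKO. Of 20 Sertoli genes tested 9 were higher and 1 lower, and of 30 germ cell genes 0 were higher and 26 lower. Among all genes tested 13.2% were higher and 15.4% lower. In Thy1 the endothelial sum was 571 and 586 CPM in dKO and 400 and 395 CPM in control, and the macrophage sum was also without overlap.

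**Figure D5:**
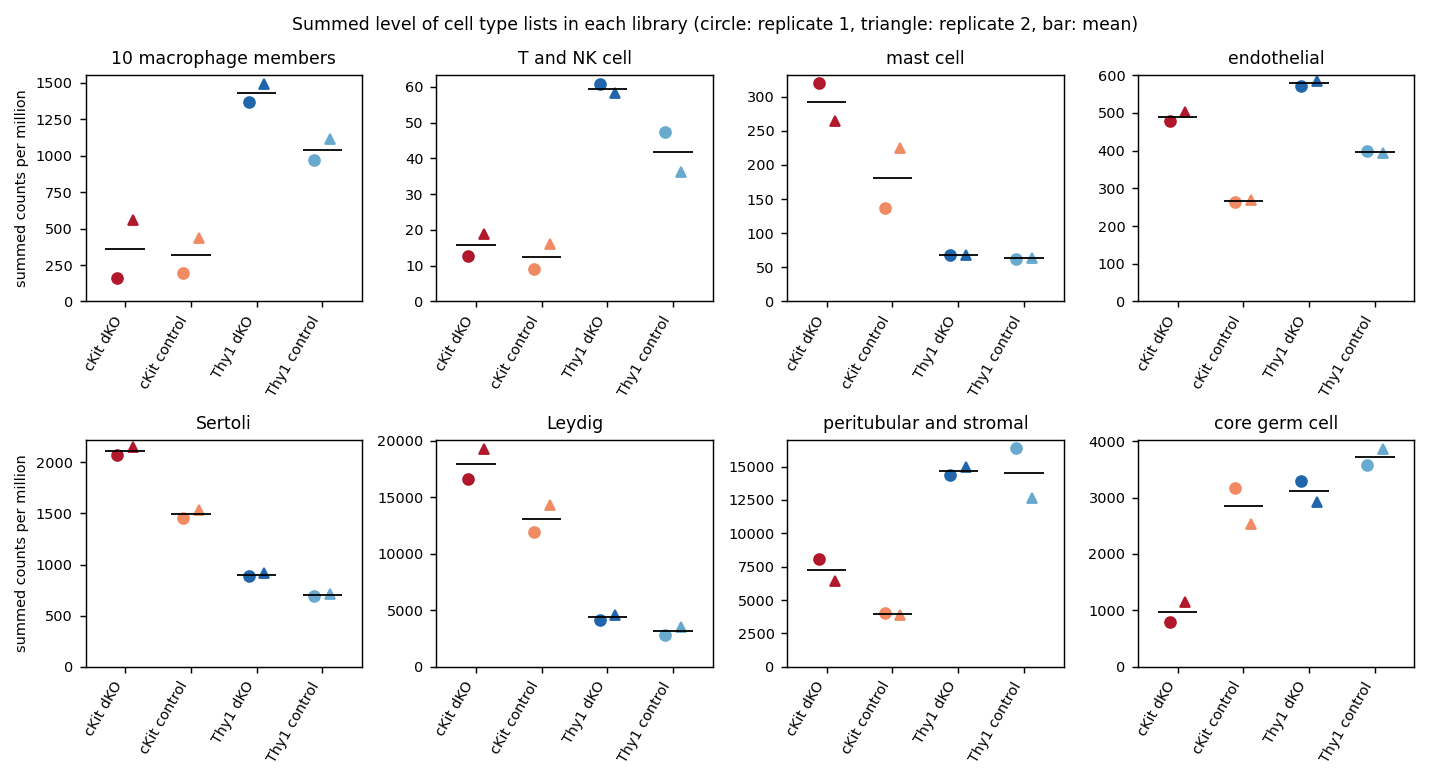
Summed CPM of 8 marker lists in each library, with cKit dKO, cKit control, Thy1 dKO and Thy1 control from left to right in every panel, replicate 1 as a circle, replicate 2 as a triangle and a bar at the mean; each panel starts at 0. The macrophage and T and NK cell panels fall in cKit, the mast cell, Sertoli and Leydig panels are highest in cKit dKO, and only the macrophage panel has cKit replicates more than 2 times apart.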

How the data were processed

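Per the labels' protocols, total RNA was amplified to cDNA with a NuGEN Ovation kit before Nextera XT library preparation and Illumina sequencing. The submitters' processing notes name STAR 2.4.2a as a tool and mm10 as the genome build. The counting tool and its strand setting are not given in the sources used here, so genes that overlap could not be told apart by strand. Per the file headers, the deposited tables give whole-number read counts per RefSeq entry, not normalized, and RPKM values that the authors scaled to transcript length and library reads. Every row named a gene.

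Counts and RPKM were summed per symbol. Tests used edgeR 4.0.16 in R 4.3.3 (two-sided): after filterByExpr by group, which kept 14907 genes, libraries were scaled by TMM and fitted together (8 libraries, a mean for each group) with glmQLFit and glmQLFTest, and Benjamini-Hochberg adjustment over all genes tested at a threshold of 0.05. All 4 groups thus shared 1 estimate of the spread (4 residual degrees of freedom), although cKit replicates spread more for these genes. CPM values use TMM-scaled library sizes, on which 3 counts equal 0.26 to 0.48 CPM. The amplified libraries carry no molecular identifiers, so such floors cover counting error only. All 10 macrophage genes passed the filter. The model was tested on simulated data with the same spread in all groups. That test does not cover the wider spread of the cKit replicates.

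The 10 genes and the other lists were chosen with earlier results of these data known. All 10 were tested in every comparison. Of each further list, up to 4 genes with the smallest adjusted p could be named. Any gene of the defining markers, CSF1R ligands and transcription factors could be named. Not every gene that these rules allowed is described. Some further genes of other cell types were named after their values were seen. Genes most like the 10 were ranked by Pearson correlation of log2 CPM among genes with a mean of at least 1. Alternatives were library totals, RLE size factors, scaling by 30 germ cell genes, DESeq2 1.42.0, no filter, limma 3.58.1 on log2(RPKM + 0.1) or log2(RPKM + 1), only the 4 libraries compared, the entry with most counts per symbol, a replicate block, and leaving out each library. With a library left out, its lone partner was assumed to vary like the other groups. Promoter sequences came from RefSeq (GRCm38.p6).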

Additional observations from a re-analysis of the deposited data

How the results depend on the processing

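The fold changes and calls of the 10 genes and the calls over all genes were refitted under 18 other settings, 8 of which left out 1 library. The named genes and call counts of the further lists were refitted in the same way, and levels, ratios, overlaps and correlations were computed once. The difference of the dKO effects, which needs all 4 groups, was not refitted on 4 libraries. Calls of Mrc1, Tyrobp, Csf1r, C1qc, Cx3cr1 and Cd68 as lower in cKit than in Thy1 held in the control under all 18, and those of Mrc1 and Tyrobp also in the dKO. In cKit dKO, replicates of 1 gene differed by up to 13.2-fold. C1qa and Cd14, with as few as 2 and 3 counts in a library, are limited by depth. Why calls moved was not tested. The replicate numbers are not stated to mark shared animals, and deviations of same-numbered libraries correlated by only -0.05 (Thy1), 0.02 (cKit), 0.05 (control) and 0.01 (dKO), so the replicate block is given here only as a setting.

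For Thy1 dKO against Thy1 control, 0 macrophage genes passed, against 4 without a filter on low counts and 3 with only the 4 libraries compared, and leaving out 1 library gave 0 to 1. For Thy1 dKO against Thy1 control, 93 genes of all tested passed, against 56 with germ cell scaling, 330 with DESeq2, 563 without a filter on low counts, 6 with limma on log2(RPKM + 0.1), 24 with limma on log2(RPKM + 1), 870 with only the 4 libraries compared, 9 with the entry of most counts per symbol and 157 with the replicate block, and leaving out 1 library gave 3 to 400. For cKit dKO against cKit control, 0 macrophage genes passed, against 1 with RLE size factors, 9 with germ cell scaling, 2 without a filter on low counts, 1 with limma on log2(RPKM + 0.1) and 1 with the replicate block, and leaving out 1 library gave 0 to 5. For cKit dKO against cKit control, 4259 genes of all tested passed, against 12092 with germ cell scaling, and leaving out 1 library gave 2386 to 3972. For cKit control against Thy1 control, 2939 genes of all tested passed, and leaving out 1 library gave 1717 to 3575. For cKit dKO against Thy1 dKO, 8 macrophage genes passed, against 3 with germ cell scaling. For cKit dKO against Thy1 dKO, 5190 genes of all tested passed, against 11893 with germ cell scaling, and leaving out 1 library gave 3101 to 5245. For the difference of the dKO effects, 0 macrophage genes passed, against 2 with germ cell scaling and 1 without a filter on low counts, and leaving out 1 library gave 0 to 4. For the difference of the dKO effects, 883 genes of all tested passed, against 8636 with germ cell scaling, 1490 without a filter on low counts and 433 with the entry of most counts per symbol, and leaving out 1 library gave 219 to 1268. Among the further lists, leaving out 1 library gave 3 to 5 lower defining markers in cKit dKO against Thy1 dKO (4 with all libraries) and 2 to 6 in cKit control against Thy1 control (4 with all). In the same order the lower genes numbered 11 to 13 and 6 to 14 for tissue residence (13 and 10 with all), 4 to 9 and 3 to 8 for DAP12 signalling (7 and 5), 2 to 5 and 2 to 5 for the lipopolysaccharide pathway (5 and 4), 3 to 5 and 4 to 6 for complement (5 and 4), 5 to 8 and 7 to 9 for lysosome and phagocytosis (8 and 9), and 0 to 3 and 0 to 3 for MHC class II (3 and 0). Higher transcription factors numbered 3 to 6 and 2 to 3 (5 and 3 with all), higher Leydig genes 12 and 9 to 11, higher mast cell genes 6 to 8 and 6 to 8, and lower stromal genes 13 to 14 and 16 to 18. With all libraries, the other settings gave as few as 1 lower defining marker, 0 lower genes of DAP12 signalling and 0 of lysosome and phagocytosis in cKit dKO against Thy1 dKO. Germ cell scaling sets the summed counts of 30 germ cell genes to a constant level. It put the median log2 fold change of all genes at 1.61 in cKit dKO against cKit control, 0.41 in cKit control against Thy1 control and 1.64 in cKit dKO against Thy1 dKO, and on log2(RPKM + 0.1) that median was -0.29, 0.23 and -0.16 in the same order. Over all genes tested in cKit dKO against cKit control, 1965 were higher and 2294 lower, against 12026 and 66 with germ cell scaling, 1278 and 3007 with library totals alone, and 443 and 4042 with limma on log2(RPKM + 0.1). In cKit control against Thy1 control 1410 were higher and 1529 lower, against 1996 and 659 with germ cell scaling and 2418 and 910 with limma on log2(RPKM + 0.1). In cKit dKO against Thy1 dKO 2202 were higher and 2988 lower, against 11722 and 171 with germ cell scaling and 1666 and 3797 with library totals alone.

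With RLE size factors, the log2 fold change took the opposite sign at 0.050 for Tyrobp in cKit dKO against cKit control; 0.053 for Lyz2 in the difference of the dKO effects. With library totals alone, the log2 fold change took the opposite sign at -0.087 for C1qb in cKit dKO against cKit control. With germ cell scaling, the log2 fold change took the opposite sign at 0.030 for Cd14, 1.10 for Mrc1 and 1.39 for Tyrobp in cKit dKO against cKit control; 0.41 for Cd14 in cKit control against Thy1 control; 0.85 for Cd68 in cKit dKO against Thy1 dKO; 0.89 for Csf1r, 0.99 for Lyz2, 0.86 for C1qb, 0.27 for Mrc1, 0.65 for Cx3cr1 and 0.69 for Tyrobp in the difference of the dKO effects. With DESeq2, the log2 fold change took the opposite sign at 0.0029 for Tyrobp in cKit dKO against cKit control; 0.038 for Lyz2 in the difference of the dKO effects. Without a filter on low counts, the log2 fold change took the opposite sign at 0.0020 for Cd14 in cKit control against Thy1 control. With limma on log2(RPKM + 0.1), the log2 fold change took the opposite sign at -0.23 for Csf1r, -0.43 for Lyz2, -0.34 for C1qa, -0.40 for C1qb, -0.12 for C1qc and -0.12 for Cx3cr1 in cKit dKO against cKit control; 0.26 for Cd14 in cKit control against Thy1 control; -0.34 for C1qa and -0.34 for C1qc in the difference of the dKO effects. With limma on log2(RPKM + 1), the log2 fold change took the opposite sign at -0.0022 for C1qa in Thy1 dKO against Thy1 control; -0.16 for Csf1r, -0.39 for Lyz2, -0.024 for C1qa, -0.30 for C1qb, -0.060 for C1qc and -0.058 for Cx3cr1 in cKit dKO against cKit control; 0.088 for Cd14 in cKit control against Thy1 control; -0.022 for C1qa and -0.27 for C1qc in the difference of the dKO effects. With only the 4 libraries compared, the log2 fold change took the opposite sign at -0.0052 for C1qa in Thy1 dKO against Thy1 control. With the replicate block, the log2 fold change took the opposite sign at -0.0051 for C1qa in Thy1 dKO against Thy1 control; 0.10 for Cd14 in cKit control against Thy1 control. Over the fits without 1 library, log2 fold changes ran from -0.20 to 1.10 for Cd14 and -0.17 to 0.22 for C1qa in Thy1 dKO against Thy1 control. Over the fits without 1 library, log2 fold changes ran from -0.65 to 0.84 for Csf1r, -1.76 to 1.43 for Lyz2, -2.31 to 1.58 for C1qa, -1.02 to 0.96 for C1qb, -0.71 to 1.15 for C1qc, -1.02 to 0.25 for Mrc1, -0.30 to 0.78 for Cx3cr1 and -0.87 to 0.99 for Tyrobp in cKit dKO against cKit control. Over the fits without 1 library, log2 fold changes ran from -0.41 to 0.60 for Cd14 in cKit control against Thy1 control. Over the fits without 1 library, log2 fold changes ran from -1.10 to 0.40 for Csf1r, -2.13 to 1.07 for Lyz2, -2.29 to 1.61 for C1qa, -1.27 to 0.70 for C1qb, -0.91 to 0.95 for C1qc and -1.26 to 0.60 for Tyrobp in the difference of the dKO effects.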

Other observations

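Of the tissue-resident genes counted above, Marco, Apoe and Pf4 were not described there. Marco, a scavenger receptor, stood at 0.32 and 23.5 CPM in cKit dKO, 0.87 and 8.42 CPM in cKit control, 2.14 and 7.76 CPM in Thy1 dKO and 0.92 and 9.27 CPM in Thy1 control, so that replicate 2 was the higher in all 4 groups. Apoe, a lipoprotein made by macrophages and Leydig cells among others, stood at 93.0 and 152 CPM in cKit dKO, 65.6 and 107 CPM in cKit control, 180 and 185 CPM in Thy1 dKO and 124 and 129 CPM in Thy1 control. Pf4, a chemokine of platelets and macrophages, stood at 1.60 and 15.7 CPM in cKit dKO, 4.76 and 14.0 CPM in cKit control, 58.6 and 55.4 CPM in Thy1 dKO and 40.0 and 54.4 CPM in Thy1 control. These 3 genes were picked after their values were seen, and their tests enter only the counts of that list.

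The library numbers in the labels run from 2384 to 2387 in Thy1 and from 3172 to 3174 in cKit, apart from cKit control replicate 1, which is 3346. What these numbers stand for is not stated, and any difference in handling between the populations cannot be told apart from the populations themselves.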
